A study of Mus musculus with 8 samples.

Results

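Heat shock chaperones bind other proteins while they fold, and 10 genes for the cytosolic and mitochondrial members of that class are described here in mouse blood-forming cells. They were taken by symbol from a table of 24421 genes: Hsp90aa1, Hsp90ab1, Hspa8, Hspa4, Hspa1a, Hspa1b, Hspd1, Hspe1, Hsph1 and Dnaja1. All 10 were found, and all 10 passed the low-count filter that left 12744 genes for testing. Haematopoietic stem and progenitor cells (HSPCs), recovered from mice after a primary transplant, were profiled by RNA sequencing in 8 libraries that form 4 groups of 2. WTEV is wild-type cells given an empty vector. dKOEV is double-knockout (dKO) cells given the same empty vector, dKOMut is dKO cells given a catalytically dead PRMT1, and dKOPRMT is dKO cells given wild-type PRMT1. The series title names beta-catenin (Ctnnb1) and Hoxa9 as the genes at issue with Prmt1, an arginine methyltransferase. Every group was transduced, and no untransduced cells are among the libraries. Whether cells of the transplant hosts were present is not stated. The comparisons ask how the double knockout differs from wild type, and what PRMT1, with or without its catalytic activity, changes in dKO cells. The labels name neither the vector, the deleting allele, the age of the animals nor how many animals stand behind a library. They also leave unsaid whether the replicates are separate animals or cultures. A p-value here rests on the spread between libraries of the same group, pooled over the 4 groups and drawn toward a value shared across genes. That spread may be purely technical.

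Chaperones of this class work as machines. HSP70 proteins bind short exposed stretches of unfolded protein in a cycle driven by ATP. J-domain proteins such as Dnaja1 deliver clients and trigger ATP hydrolysis, and HSP110 proteins (Hspa4, Hsph1) exchange the nucleotide and release the client. HSP90 proteins take over clients close to their final fold, among them many kinases and steroid receptors, with help from co-chaperones. In the mitochondrial matrix, Hspd1 (HSP60) forms a barrel that Hspe1 (HSP10) caps. Under proteotoxic stress the heat shock factor HSF1 induces many of these genes through heat shock elements, inverted repeats of the unit GAA, while the forms Hsp90ab1 and Hspa8 are abundant in unstressed cells. Blood stem cells are known for a low rate of protein synthesis and a strict control of protein quality.

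The promoters of the members differed in which of the searched forms of the heat shock element they held. Sequences are the 250 bases before the annotated start, from RefSeq on GRCm38.p6, and 7 of the 10 members had an entry. Hsp90aa1, Hsp90ab1 and Hspa8 had none. Both strands were searched for the 2-unit forms GAANNTTC and TTCNNGAA and for the 3-unit forms. The 3-unit forms add 1 more alternating unit after NN and so contain the 2-unit forms. Single units, and units with other spacing or letters, were not counted, so a window may hold more units than are marked. Some of the 7 have several annotated starts, which gives 11 windows. A 2-unit form was present in 7 of the 11 windows, from 6 members, and a 3-unit form in 2, from Hspd1 and Hspe1. The window of another Hspd1 start held neither form. Of all 32851 windows of this length, 12.8% held a 2-unit form and 0.466% a 3-unit form. The members' windows are not independent, so their counts exceed the number of distinct elements. The Hsph1 windows overlap and hold the same match, Hspd1 and Hspe1 share 1 block, and Hspa1a and Hspa1b are near copies. Windows are printed for the genes that the results below turn on, 5′ to 3′ on the strand of the gene, with the matched units in capitals. Hspe1 and Hspd1 come first, because they are a head-to-head pair that share 1 promoter, with starts 216 bases apart. The Hspe1 window lies at chr1:55087898-55088147 on the plus strand.
Hspe1: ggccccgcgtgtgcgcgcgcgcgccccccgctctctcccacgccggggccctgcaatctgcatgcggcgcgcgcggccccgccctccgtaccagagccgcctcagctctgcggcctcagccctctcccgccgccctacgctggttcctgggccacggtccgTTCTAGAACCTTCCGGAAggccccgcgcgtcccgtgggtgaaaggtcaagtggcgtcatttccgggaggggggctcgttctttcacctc
Its capital block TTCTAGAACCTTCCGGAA begins 89 bases before the Hspe1 start. The window before the Hspd1 start of the deposited table shares 215 of these bases on the opposite strand, where the block reads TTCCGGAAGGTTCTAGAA and begins 144 bases before the Hspd1 start. Hsph1 is shown as an HSP110 gene with a single 2-unit form, at chr5:149636316-149636565 on the minus strand.
Hsph1: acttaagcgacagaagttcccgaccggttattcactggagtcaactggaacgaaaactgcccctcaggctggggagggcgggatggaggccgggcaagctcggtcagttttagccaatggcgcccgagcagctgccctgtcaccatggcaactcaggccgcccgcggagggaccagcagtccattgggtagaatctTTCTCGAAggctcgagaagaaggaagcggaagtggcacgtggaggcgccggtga
Dnaja1 is shown beside it because it also holds a single 2-unit form, at chr4:40722218-40722467 on the plus strand, and did not pass the test in any comparison. The windows of 2 other Dnaja1 starts held neither form.
Dnaja1: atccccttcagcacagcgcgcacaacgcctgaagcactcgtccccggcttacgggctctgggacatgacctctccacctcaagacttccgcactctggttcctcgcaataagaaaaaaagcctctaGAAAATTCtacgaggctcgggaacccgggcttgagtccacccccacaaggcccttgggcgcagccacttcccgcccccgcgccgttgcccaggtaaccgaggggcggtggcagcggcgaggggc
Hspa1a and Hspa1b, the stress-induced HSP70 genes, lie 10121 bases apart and are shown because their promoters are near copies, differing at 3 of 250 bases. The windows are chr17:34972157-34972406 for Hspa1a and chr17:34959239-34959488 for Hspa1b, both on the minus strand.
Hspa1a: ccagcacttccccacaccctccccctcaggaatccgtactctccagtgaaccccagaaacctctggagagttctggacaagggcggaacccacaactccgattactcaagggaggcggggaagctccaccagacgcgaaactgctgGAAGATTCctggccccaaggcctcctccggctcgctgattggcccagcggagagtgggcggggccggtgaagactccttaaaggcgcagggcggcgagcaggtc
Hspa1b: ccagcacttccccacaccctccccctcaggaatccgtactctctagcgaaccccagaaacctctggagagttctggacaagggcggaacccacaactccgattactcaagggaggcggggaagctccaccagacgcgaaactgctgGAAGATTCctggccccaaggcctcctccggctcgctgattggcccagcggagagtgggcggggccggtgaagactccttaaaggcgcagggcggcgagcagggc
The Hspa4 window held neither form. A match is a description of these letters and not evidence of binding.

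Library totals ran from 15531344 counts in dKOEV replicate 1 to 22329749 in dKOEV replicate 2. Values are CPM, counts scaled to library size with TMM factors. Each difference is a log2 fold change ± an approximate standard error, for n = 2 libraries a group. That error was derived from the fold change and the statistic of the test named next, not from the 2 libraries of a group alone. "Rose" and "fell" are kept for an adjusted p under 0.05 in the quasi-likelihood test of edgeR, with Benjamini-Hochberg adjustment over all 12744 genes. Prmt1 stood at 188 to 194 CPM in the 4 empty-vector libraries, at 1744 and 1758 CPM in dKOMut and at 981 and 976 CPM in dKOPRMT. The genotype label of dKOMut replicate 2 names PRMT2, while its title places it with the PRMT1 mutant. Hoxa9 was at 18.2 and 17.2 CPM in WTEV and at 1.87 to 5.79 CPM in the 6 dKO libraries, and Ctnnb1 at 444 and 455 against 360 to 391 CPM, where reads outside the deleted part would still be counted. Xist was at 159 and 121 CPM in WTEV and had 0 counts in the dKO libraries, while Ddx3y had 0 counts in WTEV, so sex and genotype cannot be told apart in any comparison with WTEV. Groups follow the titles, because the source field reads dKO even for WTEV. The progenitor marker Kit was detected in every library, at 138 to 171 CPM, but neutrophil markers were far higher: 12 of them summed to 17180 to 17230 CPM in WTEV, 23280 to 24330 in dKOEV, 30600 to 31250 in dKOMut and 30430 to 30790 in dKOPRMT. In bulk RNA, fewer cells of a type and less RNA per cell cannot be told apart.

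The 10 genes differed widely in level. Scaled by exon length, the WTEV means were 1314 CPM per kb for Hsp90ab1 and 1265 for Hspa8, the constitutive HSP90 and HSP70 of the cytosol. Hsp90aa1, the inducible HSP90, followed at 502.6 CPM per kb, then Hspd1 at 300.3 and Hspe1 at 207.8. The HSP110 gene Hspa4 stood at 87.7 CPM per kb, while the J-domain gene Dnaja1 at 29.3 and the HSP110 gene Hsph1 at 26.8 were neighbours. Hspa1b at 0.616 and Hspa1a at 0.275 CPM per kb were at the bottom. The lengths are summed exons of the deposited table, and several members share sequence with other genes, which makes their level uncertain where reads could be split. Of their 75-base stretches, 42.8% for Hsp90aa1, 32.8% for Hspa8, 29.6% for Hspd1, 11.9% for Hspe1 and 10.4% for Dnaja1 also occur in a transcript of another gene. That share was 0.537% for Hsp90ab1 and 0 for Hspa4 and Hsph1.

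**Figure D1:**
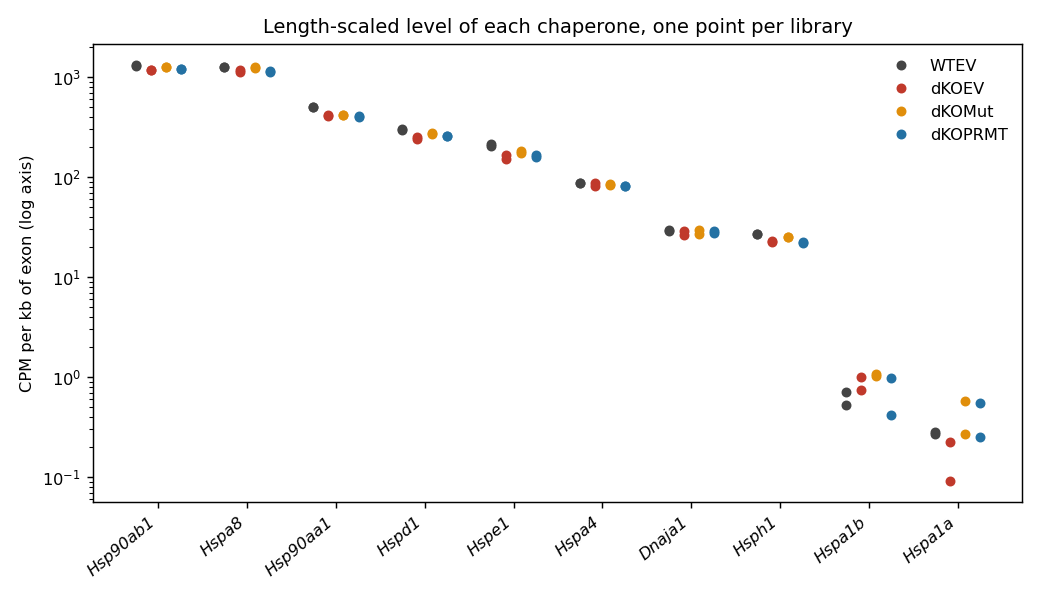
CPM per kb of exon on a log axis for the 10 chaperones, 1 point per library, coloured by group and ordered by the WTEV mean. Hsp90ab1 and Hspa8 lie at the top in all groups, and Hspa1a and Hspa1b lie near or below 1 CPM per kb.

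As a share of all counts, the members' sum was 0.877% and 0.893% in WTEV and 0.784% and 0.803% in dKOEV. It was 0.835% and 0.842% in dKOMut and 0.791% and 0.800% in dKOPRMT. The WTEV libraries were thus the highest, the dKOMut libraries came next, and dKOEV and dKOPRMT overlapped.

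**Figure D2:**
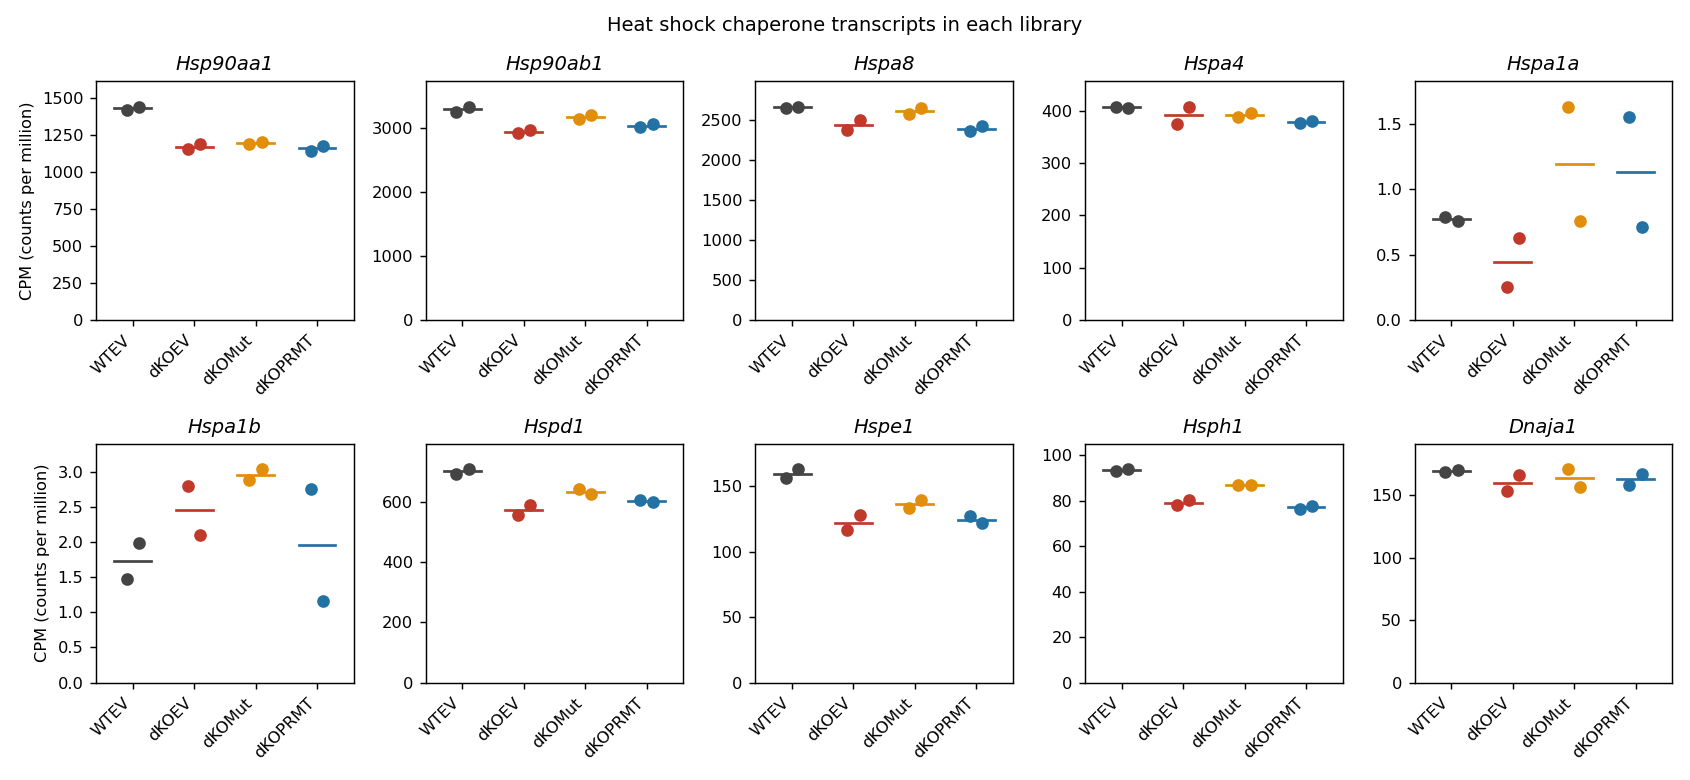
CPM of each chaperone in the 8 libraries, each panel with its own axis from 0, with points for libraries and bars for the mean of the 2 libraries of a group. For Hsp90aa1, Hsp90ab1, Hspa8, Hspd1, Hspe1 and Hsph1 both WTEV points lie above all 6 dKO points. For Hspa8 the margin is small, with 2651 CPM in WTEV replicate 1 and 2650 in dKOMut replicate 2. For Hspa1a and Hspa1b the 2 points of a group can lie far apart.

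In the double knockout with an empty vector, some chaperones of the cytosol and the mitochondrial pair were lower than in wild type. Among those called, Hspe1 fell by 23.3%, and Hspa8, with the smallest change, fell by 8.23%. Against WTEV, 6 of the 10 members fell in dKOEV and 0 rose, in a comparison where 15.4% of all tested genes were called, 7% lower and 8.44% higher. The members' median log2 difference was -0.20, against -0.001 over all tested genes. The falls took in both HSP90 genes, the constitutive HSP70, 1 of the 2 HSP110 genes and the mitochondrial pair. The libraries of both groups did not overlap for 8 members lower and 1 higher, beside 26% and 26.8% of all genes. Hspa1a is among the 8 and Hspa1b is the 1 higher, both at few counts per library.

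Hsp90aa1 (chromosome 12, 110691036 to 110696395, minus strand, GRCm38) had 1423 and 1442 CPM in WTEV and 1156 and 1188 in dKOEV. It fell by 18.2%, a log2 difference of -0.29 ± 0.03 (adjusted p = 1.9e-08). The constitutive Hsp90ab1 (chromosome 17, 45567778 to 45573261, minus strand) had 3255 and 3333 CPM in WTEV and 2925 and 2963 in dKOEV, and fell by 10.6%, at -0.16 ± 0.03 (adjusted p = 6.7e-05). Both wild-type libraries were above both dKOEV libraries for each gene. The ratio of Hsp90ab1 to Hsp90aa1 counts, which does not depend on library scaling, was 2.29 and 2.31 in WTEV and 2.50 and 2.53 in dKOEV. It was 2.64 and 2.66 in dKOMut and 2.63 and 2.59 in dKOPRMT, so that all 6 dKO libraries lay above both WTEV libraries. This ratio was not tested, and 2 against 2 libraries cannot reach a p under 0.05 in an exact permutation test.

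Among the HSP70 machinery, Hspa8 (chromosome 9, 40801273 to 40805199, plus strand) stood at 2651 and 2673 CPM in WTEV and at 2383 and 2503 in dKOEV. It fell by 8.23%, at -0.12 ± 0.03 (adjusted p = 0.0037). Hsph1 (chromosome 5, 149616845 to 149636315, minus strand), an HSP110 exchange factor, had 93.0 and 93.8 CPM in WTEV and 77.9 and 80.2 in dKOEV, and fell by 15.3%, at -0.24 ± 0.07 (adjusted p = 0.012). Of the 6 calls this had the highest adjusted p. Without WTEV replicate 1 its adjusted p was 0.0822, and without WTEV replicate 2 it was 0.103, and the count of members called was then 5. The other HSP110 gene, Hspa4 (chromosome 11, 53259814 to 53300479, minus strand), had 408 and 406 CPM in WTEV and 376 and 408 in dKOEV, which overlap, with a difference of -0.05 ± 0.04 (adjusted p = 0.45). Dnaja1 (chromosome 4, 40722468 to 40737151, plus strand), the J-domain partner, stood at 169 and 171 CPM in WTEV and at 153 and 166 in dKOEV. Its difference of -0.09 ± 0.06 did not pass the test (adjusted p = 0.35, 95% interval -0.20 to 0.03).

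The mitochondrial pair fell as well, and the value for Hspe1 was the largest log2 difference among the 6 called members, although differences between members were not tested. Hspd1 (chromosome 1, 55077834 to 55087932, minus strand) had 693 and 707 CPM in WTEV and 556 and 590 in dKOEV. It fell by 18.2%, at -0.29 ± 0.04 (adjusted p = 3.3e-07). Hspe1 (chromosome 1, 55088148 to 55091317, plus strand) had 156 and 163 CPM in WTEV and 116 and 128 in dKOEV, and fell by 23.3%, at -0.38 ± 0.06 (adjusted p = 7.8e-06). These are the 2 genes that share the promoter with the 3-unit elements printed above. Their ratio per kb was 1.43 and 1.46 in WTEV and 1.47 to 1.62 in the dKO libraries.

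The stress-induced HSP70 genes had few counts in every group. Hspa1a (chromosome 17, 34969359 to 34972156, minus strand) had 16 and 14 counts in WTEV, 4 and 14 in dKOEV, 35 and 14 in dKOMut and 31 and 14 in dKOPRMT. In CPM that was 0.255 to 1.63, and replicate 2 lay between 0.627 and 0.76 in all 4 groups. Hspa1b (chromosome 17, 34956429 to 34959238, minus strand) had 30 and 37 counts in WTEV, 44 and 47 in dKOEV, 62 and 56 in dKOMut and 55 and 23 in dKOPRMT, or 1.16 to 3.04 CPM. Of the 75-base stretches of the Hspa1a transcript 52.7% also occur in Hspa1b, so the split between them is uncertain. Their sum was 2.25 and 2.75 CPM in WTEV, 3.06 and 2.73 in dKOEV, 4.52 and 3.80 in dKOMut and 4.31 and 1.87 in dKOPRMT. Neither gene passed the test in any comparison, and at these counts the intervals are wide. For dKOEV against WTEV they ran from -2.37 to 0.88 for Hspa1a and from -0.45 to 1.44 for Hspa1b.

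No member passed the test for wild-type PRMT1 in dKO cells. In dKOPRMT against dKOEV 0 of 10 members were called, while 14.6% of all tested genes were, 5.96% higher and 8.67% lower, and 0 members were under an unadjusted p of 0.05. DESeq2 and limma voom also called 0 members. Hsp90aa1 had 1143 and 1178 CPM in dKOPRMT, which overlap with dKOEV, and its 95% interval ran from -0.08 to 0.05 on the log2 scale. Hsp90ab1, at 3011 and 3054 CPM, had an interval of -0.02 to 0.10, and Hspa8, at 2366 and 2430 CPM, one of -0.09 to 0.04. The mitochondrial Hspd1, at 606 and 597 CPM, lay above both dKOEV libraries, with a difference of 0.07 ± 0.04 (adjusted p = 0.24) and an interval of -0.01 to 0.15. Hspe1 had 127 and 122 CPM and an interval of -0.10 to 0.14. Hsph1 had 76.4 and 77.6 CPM, with an interval of -0.18 to 0.10. For Hspa4, at 376 and 380 CPM, the interval was -0.14 to 0.03, and for Dnaja1, at 158 and 167 CPM, it was -0.09 to 0.14.

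Catalytically dead PRMT1 was compared with the empty vector in the same way. Against dKOEV, 3 of 10 members rose in dKOMut and 0 fell, where 11.3% of all tested genes were called, 4.24% higher and 7.08% lower. The members' median was 0.12, against 0.002 over all genes. Hsp90ab1, with 3135 and 3195 CPM in dKOMut, rose by 0.10 ± 0.03 (adjusted p = 0.012), Hspa8, with 2583 and 2650 CPM, by 0.10 ± 0.03 (adjusted p = 0.029), and Hspd1, with 642 and 625 CPM, by 0.14 ± 0.04 (adjusted p = 0.0073). The libraries of both groups did not overlap for these 3 genes, nor for 5 other members that lay higher in dKOMut, so for 8 of 10 members beside 23.9% of all genes. The 5 include Hspa1a and Hspa1b, both at few counts. Hspa1a had 4 and 14 counts in dKOEV and 35 and 14 in dKOMut. Among those 5, Hspe1 had 134 and 140 CPM and a difference of 0.16 ± 0.06 (adjusted p = 0.079), and Hsph1 had 86.7 and 87.1 CPM and 0.14 ± 0.07 (adjusted p = 0.22). Hsp90aa1, the inducible HSP90, stayed near dKOEV at 1190 and 1202 CPM, with 0.03 ± 0.03 (adjusted p = 0.65). Hspa4 with 389 and 395 CPM and Dnaja1 with 171 and 156 CPM overlapped dKOEV.

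Each of these 3 calls was lost when some single library was left out. Hsp90ab1 had an adjusted p of 0.128 without dKOMut replicate 2. Hspa8 had 0.188 without dKOEV replicate 1 and 0.231 without dKOMut replicate 2, and 0.076 when the 2 compared groups were fitted alone. Hspd1 had 0.0928 without dKOEV replicate 1 and 0.0915 without dKOMut replicate 1. Leaving out dKOEV replicate 2 instead brought Hspe1 past the threshold, at an adjusted p of 0.0177. The count of members called ran from 1 to 4 over the 8 libraries left out in turn.

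The direct comparison of the 2 PRMT1 forms called 1 of 10 members, where 3.11% of all genes were called, 1.43% higher and 1.68% lower. Hspa8 fell by 8.35% in dKOPRMT relative to dKOMut, at -0.13 ± 0.03 (adjusted p = 0.012). That call was lost without dKOMut replicate 2 (adjusted p = 0.192), without dKOPRMT replicate 1 (0.293) and without dKOPRMT replicate 2 (0.0636), which left 0 members. For 8 of 10 members both dKOPRMT libraries lay below both dKOMut libraries, beside 21.8% of all genes. Hspa1b, at few counts per library, is among these 8. For Hsp90ab1 the difference was -0.06 ± 0.03 (adjusted p = 0.33), for Hspd1 -0.07 ± 0.04 (adjusted p = 0.39), for Hspe1 -0.14 ± 0.06 (adjusted p = 0.28) and for Hsph1 -0.17 ± 0.07 (adjusted p = 0.20). Prmt1 itself was higher in dKOMut than in dKOPRMT, so the 2 forms differ in transcript level as well as in activity, and the part of each cannot be told apart.

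**Figure D3:**
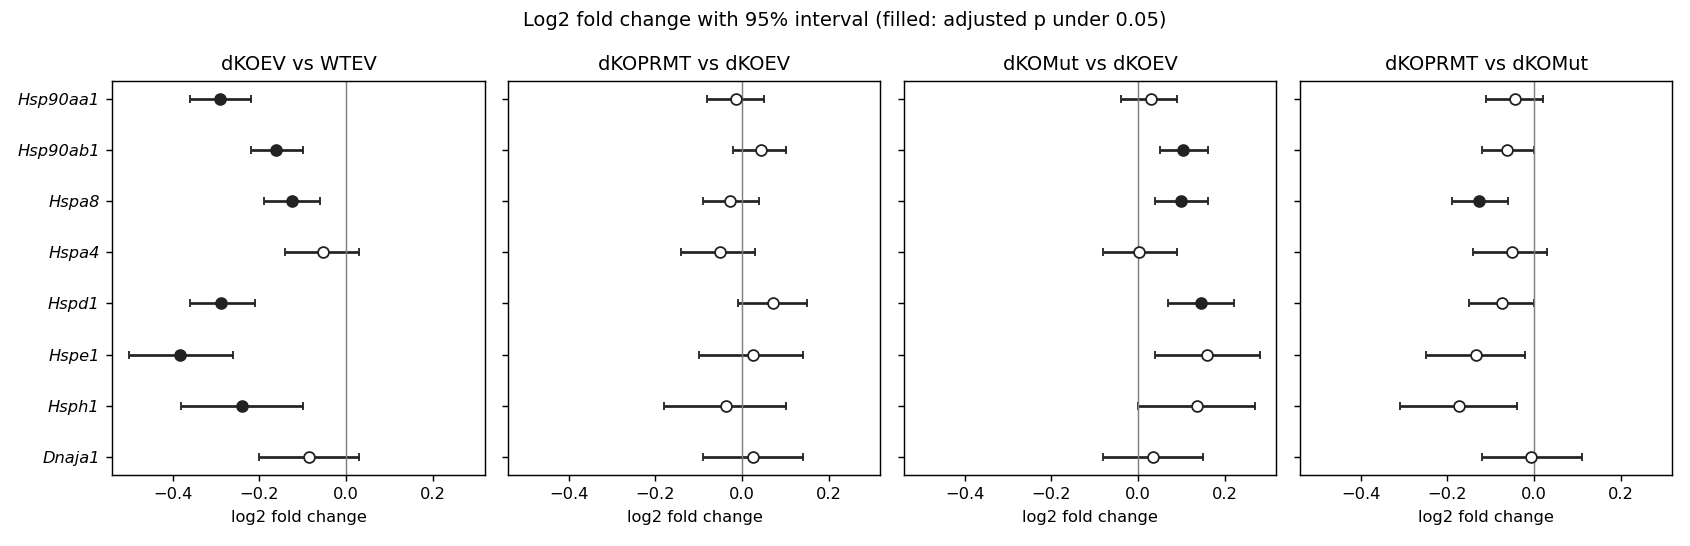
Log2 fold change with its 95% interval for the 8 members other than Hspa1a and Hspa1b, in 4 comparisons, with filled points for an adjusted p under 0.05 and open points for the rest. In dKOEV vs WTEV 6 filled points lie left of 0, in dKOPRMT vs dKOEV there are none, and in dKOMut vs dKOEV 3 lie right of 0.

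Set against wild type, both PRMT1 groups still held lower levels of some members. In dKOPRMT vs WTEV 6 of 10 members fell, where 23.2% of all genes were called, 11% higher and 12.2% lower. They were Hsp90aa1 at -0.30 ± 0.03, Hsp90ab1 at -0.12 ± 0.03, Hspa8 at -0.15 ± 0.03, Hspd1 at -0.22 ± 0.04, Hspe1 at -0.36 ± 0.06 and Hsph1 at -0.28 ± 0.07. Without WTEV replicate 2, Hsp90ab1 had an adjusted p of 0.0515. Hspa4 differed by -0.105 ± 0.04 (adjusted p = 0.065), and passed the threshold when the compared groups were fitted alone (adjusted p = 0.0233). In dKOMut vs WTEV 3 members fell, where 19.4% of all genes were called, 9.41% higher and 9.96% lower: Hsp90aa1 at -0.26 ± 0.03 (adjusted p = 6.5e-08), Hspd1 at -0.145 ± 0.04 (adjusted p = 0.0036) and Hspe1 at -0.22 ± 0.06 (adjusted p = 0.0043). Hsp90ab1 differed by -0.06 ± 0.03 (adjusted p = 0.18), and it did pass the threshold under some alternative processing. Hspa8 differed by -0.025 ± 0.03 (adjusted p = 0.66) and passed it under none. Hspd1 had an adjusted p of 0.0616 without WTEV replicate 2 and 0.0754 without dKOMut replicate 2. Hspe1 had 0.0914 without WTEV replicate 2 and 0.0682 without dKOMut replicate 1, and the count of called members fell to as few as 1. The comparisons with WTEV share its libraries, and those with dKOEV share the dKOEV libraries, so their values are not independent.

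Other chaperone families were read from lists of textbook members, in the order of the folding path. Of 22 tested HSP70 and J-domain genes beyond the members, 2 rose and 1 fell in dKOEV against WTEV, a share near the 15.4% called over all genes. Dnajb12 rose by 0.34 ± 0.10 and Dnajb14 by 0.42 ± 0.12, both J-domain proteins of the endoplasmic reticulum membrane. Dnajc2, a J-domain protein of the ribosome, was at -0.21 ± 0.06. Each of these 3 calls was lost without WTEV replicate 2, with adjusted p of 0.328, 0.068 and 0.273. Dnajb14 also lost its call without WTEV replicate 1 (0.13) and dKOEV replicate 2 (0.0683), and Dnajc2 without dKOEV replicate 1 (0.0573). In dKOPRMT and in dKOMut against dKOEV 0 of the 22 were called by edgeR, DESeq2 or limma voom, with 2 at an unadjusted p under 0.05 in each. Of 9 HSP70 exchange factors and adaptors, 0 were called in these 3 comparisons by any of the 3 tools, with 1, 2 and 1 at an unadjusted p under 0.05 in dKOEV vs WTEV, dKOPRMT vs dKOEV and dKOMut vs dKOEV.

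HSP90 co-chaperones, which time the HSP90 cycle and pick its clients, were called in dKOEV against WTEV at a share near the 15.4% over all genes. Of 23, 3 fell, where 7% of all genes were called lower, and 0 rose: the immunophilin Fkbp4 at -0.20 ± 0.04, the cyclophilin Ppid at -0.29 ± 0.07 and Ptges3, the p23 protein that holds HSP90 closed, at -0.18 ± 0.05. Without WTEV replicate 2, Ppid (adjusted p = 0.0714) and Ptges3 (adjusted p = 0.138) were no longer called, and Ptges3 also not without dKOEV replicate 1 (0.0523). Fkbp4 was at 294 and 284.5 CPM in WTEV, 250.7 and 253.3 in dKOEV, 298.7 and 312.8 in dKOMut and 281.3 and 285.2 in dKOPRMT. Its dKOEV libraries were therefore the lowest of the 8. It rose by 0.28 ± 0.04 in dKOMut against dKOEV and by 0.17 ± 0.04 in dKOPRMT against dKOEV, the latter not without dKOPRMT replicate 2 (adjusted p = 0.0862). The other risers were Cacybp in dKOMut (0.20 ± 0.06, adjusted p = 0.247 without dKOMut replicate 2 and 0.0835 without dKOEV replicate 2) and Fkbp5 in dKOPRMT (0.17 ± 0.06, adjusted p = 0.378 without dKOPRMT replicate 2 and 0.144 without dKOEV replicate 2).

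Mitochondrial chaperones and proteases other than the HSP60 and HSP10 pair had 2 of 14 genes lower in dKOEV and 0 higher, a share near the 15.4% called over all genes. Hspa9, the HSP70 of the mitochondrial matrix, had 521 and 538.7 CPM in WTEV and 446.6 and 449.7 in dKOEV, and fell, at -0.24 ± 0.04. The matrix protease Lonp1 differed by -0.24 ± 0.05 and was also called. Both calls were kept with each library left out. Hspa9 stayed at 453.3 and 447.8 CPM in dKOMut and 456.3 and 460.8 in dKOPRMT, and 0 of the 14 genes were called in either group against dKOEV by edgeR, DESeq2 or limma voom, with 2 at an unadjusted p under 0.05 in each.

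TRiC, the ring-shaped chaperonin of the cytosol that folds actin and tubulin, receives some of its clients from prefoldin. Of 14 TRiC and prefoldin genes 7 fell in dKOEV, where 7% of all genes did, and 0 rose, and the median over the list was -0.17. All 7 were TRiC subunits: Cct8 at -0.23 ± 0.04, Cct6a at -0.20 ± 0.04, Tcp1 at -0.20 ± 0.04, Cct5 at -0.16 ± 0.04, Cct7 at -0.17 ± 0.04, Cct3 at -0.17 ± 0.04 and Cct2 at -0.15 ± 0.04. Cct4 was not called, at -0.06 ± 0.04. Without WTEV replicate 2, Cct3 (adjusted p = 0.0583) and Cct2 (0.152) were not called, and without dKOEV replicate 1, Cct7 (0.0586) and Cct3 (0.124). Cct8 had 460.6 and 480.8 CPM in WTEV and 389.7 to 424.5 in the 6 dKO libraries. In dKOMut against dKOEV 0 of the 14 were called by edgeR, DESeq2 or limma voom, with 5 at an unadjusted p under 0.05. In dKOPRMT against dKOEV Cct4 was the 1 gene called, and fell, at -0.16 ± 0.04 (adjusted p = 0.118 without dKOPRMT replicate 2).

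Chaperones of the endoplasmic reticulum, which fold secreted and membrane proteins and answer to another stress pathway, were called for a part of their list. In dKOEV against WTEV 9 of 16 fell and 0 rose, where 7% and 8.44% of all genes did, with Hspa5 (BiP), the HSP70 of that compartment, at -0.17 ± 0.03, its HSP90, Hsp90b1, at -0.15 ± 0.03 and the disulfide isomerase P4hb at -0.29 ± 0.03. The count of falls was 3 without WTEV replicate 2. In dKOPRMT against dKOEV 10 of 16 rose and 0 fell, where 5.96% and 8.67% of all genes did, with the calcium-binding lectin Calr at 0.21 ± 0.03, P4hb at 0.18 ± 0.03, Pdia6 at 0.18 ± 0.04 and Hsp90b1 at 0.15 ± 0.03, and the count was 4 without dKOPRMT replicate 2. In dKOMut 2 of 16 rose, Calr at 0.12 ± 0.03 (adjusted p = 0.0752 without dKOMut replicate 2) and Hyou1 at 0.14 ± 0.04 (adjusted p = 0.223 without dKOEV replicate 1 and 0.213 without dKOMut replicate 1). In dKOPRMT against dKOMut 2 of 16 were called higher, P4hb at 0.14 ± 0.03 and Hspa5 at 0.12 ± 0.03, and 0 without any 1 library of these 2 groups. Over all genes, 4.24% were called higher in dKOMut against dKOEV and 1.43% in dKOPRMT against dKOMut. Whether these endoplasmic reticulum genes differ from the 10 members in their response to PRMT1 was not tested.

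**Figure D4:**
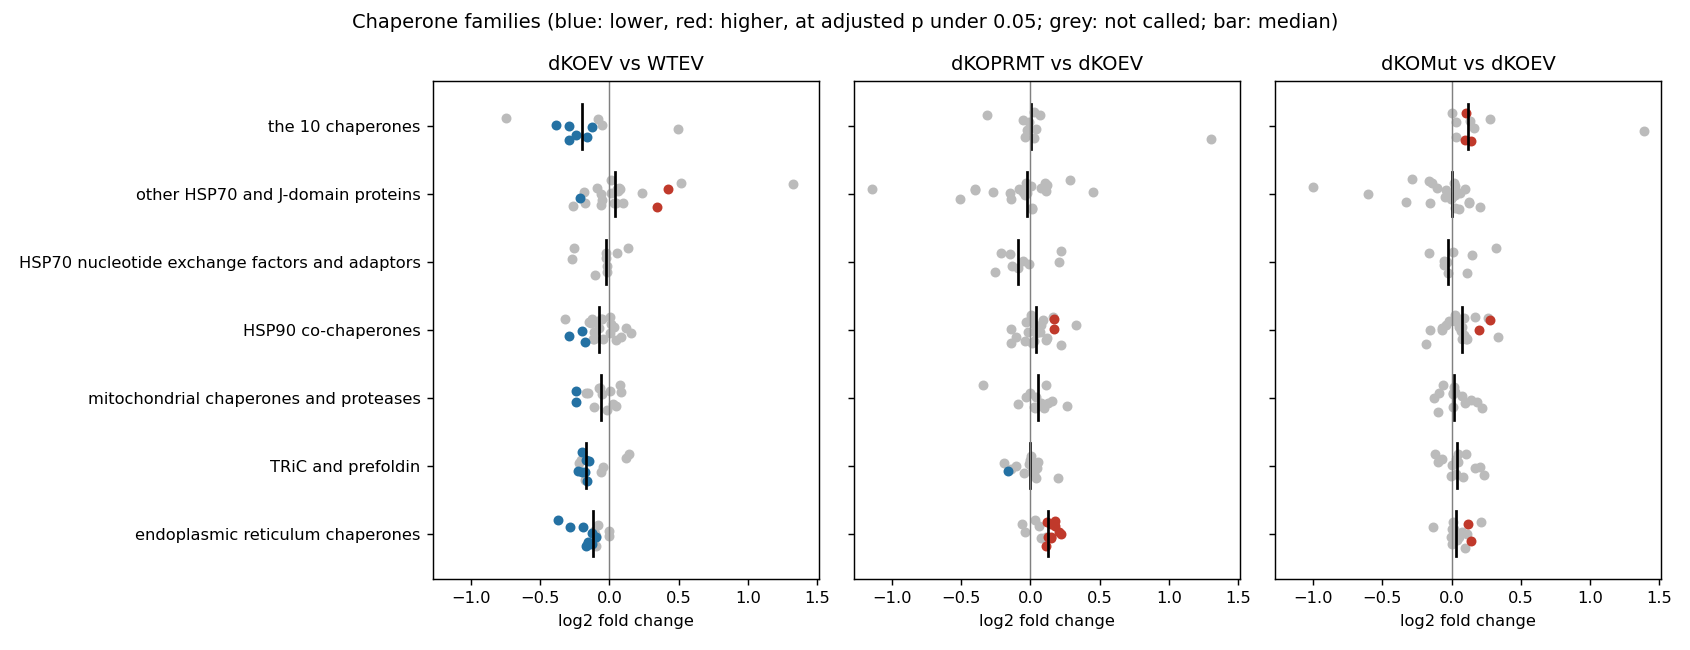
Log2 fold change of each tested gene in 7 chaperone families for 3 comparisons, with blue and red points for genes called lower and higher, grey points for the rest and a black bar at the median of the family. Blue points gather at the 10 chaperones, TRiC and the endoplasmic reticulum in dKOEV vs WTEV, and red points at the endoplasmic reticulum in dKOPRMT vs dKOEV.

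The factors that drive the heat shock response were read next. Hsf1, its main activator, averaged 30.3 CPM in WTEV and 35.2 in dKOEV, a difference of 0.21 ± 0.11 (adjusted p = 0.19), and Hsf2 differed by 0.13 ± 0.16 (adjusted p = 0.68). Of 3 tested heat shock factor genes 0 were called in dKOEV against WTEV by edgeR, DESeq2 or limma voom, and 0 were at an unadjusted p under 0.05. Small heat shock proteins were mostly below the low-count filter, with 2 of 8 tested and, by the same tools and unadjusted p, 0 different. Among 17 tested genes listed as HSF1 stress targets outside the members, 2 rose in dKOEV (Ubb at 0.18 ± 0.06 and Ier5 at 0.23 ± 0.08) and 1 fell, Fkbp4, a share near the 15.4% called over all genes. Of the 17, limma voom called 3 and DESeq2 1. The rises of Ubb and Ier5 were not called by DESeq2 (adjusted p = 0.0589 and 0.0742). Nor were they when edgeR fitted the compared groups alone (adjusted p = 0.0543 and 0.061). Neither rise was called without WTEV replicate 1 (adjusted p = 0.115 and 0.167), WTEV replicate 2 (0.0858 and 0.224) or dKOEV replicate 2 (0.572 and 0.402), nor that of Ier5 without either dKOPRMT library (0.0649 and 0.0586). In dKOPRMT against dKOEV 1 rose, Fkbp4, where 5.96% of all genes did, and 3 fell, where 8.67% did. Among the 3 were the autophagy receptor Sqstm1 at -0.50 ± 0.05 and Ier5 at -0.63 ± 0.08. In dKOMut against dKOEV 2 rose, where 4.24% of all genes did, and 3 fell, where 7.08% did, with Sqstm1 at -0.39 ± 0.05. The 2 were Fkbp4 and Cacybp, both already counted above as HSP90 co-chaperones.

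Markers of other processes and cell types moved in the same comparison as the members' falls, and their part in the result was not tested. Over all tested genes, 7% were called lower and 8.44% higher in dKOEV against WTEV. For dKOPRMT against dKOEV those shares were 8.67% and 5.96%. In dKOEV against WTEV 10 of 20 nucleolar and Myc-related genes fell and 1 rose, among them Ncl and Npm1 at -0.28 ± 0.03 each, and their summed level was 5952 to 6140 CPM in WTEV, 5139 to 5211 in dKOEV, 5292 to 5328 in dKOMut and 5172 to 5285 in dKOPRMT. Of 15 cell cycle genes 5 fell and 0 rose (2 falls without dKOEV replicate 2), and in dKOPRMT against dKOEV 7 rose (2 without dKOPRMT replicate 1). Immediate early genes, which respond within minutes to growth factors or handling, had 10 of 18 higher and 0 lower in dKOEV, with Fos at 0.66 ± 0.08 and a summed level of 1258 to 1289 CPM against 1068 to 1069 in WTEV. Of 12 neutrophil markers 10 were called higher and 1 lower. Of 12 monocyte, macrophage and dendritic markers 7 were lower and 0 higher, and their sum was 5244 to 5363 CPM in WTEV and 4092 to 4275 in dKOEV. The 11 stem and progenitor markers summed to 957 to 979.9 CPM in WTEV, 834.3 to 856.5 in dKOEV, 751.5 to 773.5 in dKOMut and 668.7 to 687.9 in dKOPRMT, with 4 lower and 2 higher in dKOEV against WTEV. That sum is weighted to high genes such as Ly6a and Gata2, and lower ones went both ways. Flt3 was at 35.1 and 31.6 CPM in WTEV and 15.4 and 17.4 in dKOEV. Mecom was at 1.18 and 1.94 CPM in WTEV and 8.40 and 9.41 in dKOEV, and Hlf at 12.2 and 12.8 against 21.3 and 17.4. The 9 mast cell, basophil and eosinophil markers summed to 1369 to 1400 CPM in WTEV and 839.2 to 871.2 in dKOEV. Erythroid markers summed to 371.9 to 379.2 CPM in WTEV and 277.3 to 288.2 in dKOEV, and B cell markers to at most 13.3 CPM in any library. Of the 10 erythroid markers, 4 had 0 counts in both WTEV libraries and 5 in both dKOEV libraries, so that sum rests on few genes. No marker of the neutrophil, monocyte, stem and mast cell lists was at 0 in both libraries of WTEV or of dKOEV.

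Over the 8 libraries the 8 members at a mean of 5 CPM or more varied together. Pairwise Pearson correlations of log2 CPM ran from 0.602 to 0.967 among the 7 other than Dnaja1, with Hspd1 and Hspe1 the closest at 0.967. Dnaja1 correlated with the others at 0.512 to 0.673. The points share library, group and sequencing depth, so these values are a description with no test. The mean centred profile was 0.12 and 0.14 in WTEV, -0.11 and -0.04 in dKOEV, 0.015 in both dKOMut libraries and -0.08 and -0.06 in dKOPRMT. Of 9937 other genes at that level, the 5 with the most similar profile were Atp8b2 (Pearson r = 0.992), the HSP90 co-chaperone Ptges3 (0.985), the mitochondrial citrate carrier Slc25a1 (0.983), the TRiC subunit Cct7 (0.983) and the ribosomal protein gene Rps15a (0.98). Ptges3 averaged 270.8 CPM in WTEV, 239.5 in dKOEV, 252.6 in dKOMut and 239.9 in dKOPRMT. Cct7 averaged 396.4, 351.4, 373.1 and 354.4 CPM in the same order.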

How the data were processed

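The authors deposited 1 table of raw read counts per gene for the 8 libraries, with exon coordinates and gene length, per the file headers. Per the labels' protocols, an RNeasy Plus Micro purification preceded library preparation with a directional Ultra II kit. Trim Galore 0.6.6, STAR 2.7.6a and featureCounts on GRCm38 (mm10) are named, per the submitters' processing notes. Annotation, read length, strand setting and multi-mapping treatment are unknown (not given in the sources used here); overlapping and antisense genes, and near-identical copies, cannot be separated.

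From the deposited counts, R 4.3.3 and edgeR 4.0.16 were used: filterByExpr, TMM scaling and a robust quasi-likelihood fit to the 8 libraries with a term for group alone (4 residual degrees of freedom, median prior 30.4, common biological coefficient of variation 0.0637). CPM and log2 fold changes were computed here. P-values were adjusted over 12744 genes by Benjamini-Hochberg. Intervals are at 95% and cover the spread between libraries. The members and gene lists were chosen with earlier results of these data known. Named by rule were all members, up to 4 called genes with the smallest p per list and comparison (some left out for room), Hsf1, Hsf2 and the 5 genes most like the members; other named list genes were chosen after their values were seen. The values of 1 list gene are not reported here. Alternatives used DESeq2 1.42.0, limma 3.58.1 voom, DESeq2 size factors, other filters, compared groups only, a replicate block, a threshold of 0.01, Hspa1a and Hspa1b summed, and each library left out. Steps were tested on simulated data. Replicates differed by more than sampling noise: chi-square over its degrees of freedom was 3.64 to 6.42.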

Additional observations from a re-analysis of the deposited data

How the results depend on the processing

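Over 17 alternatives, the 19 member results past the threshold kept their direction, and 11 of them stayed past the threshold in every alternative. Another 3 were past it under some alternative alone, and 38 were never past it. At a threshold of 0.01, 1 member was called in dKOMut vs dKOEV and 0 in dKOPRMT vs dKOMut. With single libraries left out, where the lone library of a group is assumed to vary like the others, members called ran from 5 to 6 in dKOEV vs WTEV, 0 to 0 in dKOPRMT vs dKOEV, 1 to 4 in dKOMut vs dKOEV, 0 to 1 in dKOPRMT vs dKOMut, 5 to 7 in dKOPRMT vs WTEV and 1 to 3 in dKOMut vs WTEV. Over all genes, without WTEV replicate 1 or 2, 1209 and 1149 genes were called in dKOEV vs WTEV against 1967, and without dKOPRMT replicate 1 or 2, 1133 and 1058 in dKOPRMT vs dKOEV against 1864. For dKOPRMT vs dKOMut, leaving out a dKOMut library gave 244 and 240 genes and a dKOPRMT library 171 and 205, against 396, and without dKOPRMT replicate 1, dKOPRMT vs WTEV called 1954 against 2955. At a threshold of 0.01, the 6 comparisons called 1209, 1139, 897, 219, 2085 and 1738 genes. Low counts limit Hspa1a and Hspa1b, at 4 to 62 counts per library.

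With a replicate block the counts of members called in these 6 comparisons were 6, 0, 3, 1, 6 and 3, the same as without it. Deviations of same-numbered libraries correlated at -0.04 to 0.02 across genes, so no broad shift shared by same-numbered libraries was seen. That does not exclude a shared origin that affects few genes.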
